A study of Mus musculus with 16 samples.

Results

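Constant distal regions are H3K27ac sites away from gene starts that were present under every condition of this experiment. To define them, the peaks of the 4 deposited lists were merged into 55218 regions by an overlap of at least 1 bp. A region was kept where it held a peak in all 4 lists, spanned less than 5000 bp, and had no peak summit, the highest point of a peak, within 1 kb of the start site of a protein-coding gene in any list. This left 10535 regions, which were 49.1% of the 21468 regions found in all 4 lists and 24.6% of the 42905 distal regions. The members were thus chosen by measured values of the same lists, namely the presence, width and summit position of their peaks, so the levels below are given as a description of them. "Constant" refers to presence alone, since the amount of H3K27ac at these regions differed between lists.

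H3K27ac was measured by ChIP-seq in bone marrow-derived macrophages (BMDMs), primary macrophages grown in culture from the marrow of C57Bl6 mice aged 8 to 12 weeks. The groups were untreated cells (Control), cells given 100 ng/mL interferon gamma (IFNγ) for 1 h, cells given 20 µM PJ34, an inhibitor of PARP-1 and related enzymes, and cells given PJ34 1 h before IFNγ (IFNγ+PJ34). The labels give 2 ChIP replicates and 2 input DNA replicates of each group, 8 ChIP and 8 input samples in all, and the authors combined both ChIP replicates of a group into a single list. Whether the replicates came from separate mice is not stated. With 1 list per condition there is no replicate error, so differences are given untested and without p-values, and the 95% intervals cover counting error over regions only. Read depth is not given in the lists.

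Acetylation of histone H3 at lysine 27 marks active promoters and enhancers, and the enhancers of macrophages are bound by the ETS-family factor PU.1 together with C/EBP, AP-1, RUNX and IRF factors. These factors displace nucleosomes where they bind, and the acetylated nucleosomes lie on either side. The transcriptional response to IFNγ works through GAS elements in DNA and through IRF factors that its target genes encode.

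The following stretches of members show the sequence elements on which the results turn. Each is the plus strand of mm10 (GRCm38), written 5′ to 3′, with the match to the named motif in capitals. For PU.1, searched as GAGGAAGT on both strands, matches are shown in members whose nearest gene belongs to the macrophage lists used below. They lie in introns of Nfkb1, Pparg, Itgam and Cd36 and between genes upstream of Mpeg1 and Tyrobp.
Nfkb1, chr3:135608247-135608326: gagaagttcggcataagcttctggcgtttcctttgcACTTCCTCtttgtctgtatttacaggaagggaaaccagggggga
Pparg, chr6:115480350-115480429: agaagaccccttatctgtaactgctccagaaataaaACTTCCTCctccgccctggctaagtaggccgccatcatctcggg
Itgam, chr7:128089267-128089346: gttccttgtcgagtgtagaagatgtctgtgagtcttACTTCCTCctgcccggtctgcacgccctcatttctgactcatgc
Mpeg1, chr19:12457540-12457619: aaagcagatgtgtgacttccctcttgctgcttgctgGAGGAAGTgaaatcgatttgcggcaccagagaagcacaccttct
Cd36, chr5:17880618-17880697: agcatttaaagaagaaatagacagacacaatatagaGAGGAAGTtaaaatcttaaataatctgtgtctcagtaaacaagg
Tyrobp, chr7:30394524-30394603: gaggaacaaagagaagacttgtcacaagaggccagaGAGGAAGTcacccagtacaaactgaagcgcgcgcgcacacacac
In this order the matches lay 153, 278, 214, 209, 255 and 427 bp from the summit of their region.

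For C/EBP, searched as TTGCNNAA, and for AP-1, searched as TGANTCA, a match is shown from the intergenic member near Fcgr4 and from the member in an intron of Ppp1r21, which is among the 10 strongest.
Fcgr4, C/EBP, chr1:171038104-171038183: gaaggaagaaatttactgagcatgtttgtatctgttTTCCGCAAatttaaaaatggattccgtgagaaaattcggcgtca
Ppp1r21, AP-1, chr17:88551408-88551486: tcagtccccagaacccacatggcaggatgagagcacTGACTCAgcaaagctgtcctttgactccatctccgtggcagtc
For GAS, searched as TTCNNNGAA, matches are shown from members that were higher in both IFNγ lists than in their controls. They lie in introns of Il4ra, Art3 (nearest start site Cxcl10) and Ciita and between genes upstream of Gbp5.
Il4ra, chr7:125561435-125561515: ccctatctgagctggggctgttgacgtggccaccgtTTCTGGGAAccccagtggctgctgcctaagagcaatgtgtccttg
Gbp5, chr3:142494103-142494183: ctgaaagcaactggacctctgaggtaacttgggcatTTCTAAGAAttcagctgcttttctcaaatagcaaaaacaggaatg
Cxcl10, chr5:92353644-92353724: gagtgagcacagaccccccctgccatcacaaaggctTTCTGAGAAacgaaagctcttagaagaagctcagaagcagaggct
Ciita, chr16:10486481-10486561: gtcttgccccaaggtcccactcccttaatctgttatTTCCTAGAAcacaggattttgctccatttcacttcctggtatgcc

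The constant distal regions were spread over all chromosomes, mostly in introns and between genes. Their merged width had a median of 1676 bp, and their summits lay a median of 22665 bp from the nearest start site of a protein-coding gene, with quartiles of 9370 and 53892 bp. In all, 46.8% lay 10000 to 50000 bp from that start site, 10.3% at 2000 to 5000 bp, 1.81% closer than that, and 12.6% farther than 100 kb. Of the members, 5185 (49.2%, interval 48.3 to 50.2) had their summit in an intron, 5002 (47.5%) between genes, 182 (1.73%) in a coding exon and 166 (1.58%) in an untranslated exon. Distal regions found in only 1 to 3 lists, called variable distal regions, lay in introns slightly more often (53.1%, interval 52.5 to 53.6). Upstream of the nearest start site lay 45.3% of the members. The median gap from a member to the next was 31868 bp. Per chromosome, the members made up 22.2% to 26.4% of the distal regions, the lowest value being that of chromosome Y with only 9 distal regions.

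The limits of the definition cut through a continuum. The member closest to a start site, near Ski, had a summit 1008 bp away and fold enrichments of 42.2, 12.7, 27.7 and 31.3 in Control, IFNγ, PJ34 and IFNγ+PJ34. The region just outside the limit, near Plxnb2, had a summit at 1000 bp and fold enrichments of 57.1, 25.1, 41.5 and 25.9. At the width limit, the widest member, near Rell1, spanned 4997 bp and had fold enrichments of 15.7, 6.95, 6.60 and 10.5. The narrowest distal region beyond it, near Rps20, spanned 5009 bp and had 14.1, 10.5, 10.5 and 14.2. In all, 712 distal regions present in all 4 lists were 5000 bp or wider and were not counted as members, and 793 members (7.53%) lay within 1 kb of the start site of some annotated gene once noncoding genes were counted.

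The strength of a peak is given in the lists as fold enrichment, the ratio of ChIP signal to the local background at its summit. In Control, the members had a median fold enrichment of 9.28, with a 5th percentile of 3.48 and a 95th percentile of 30.9. The medians with treatment were 6.67 for IFNγ, 7.04 for PJ34 and 8.33 for both agents. Members were therefore weaker than constant promoter regions, the 9436 regions of the same width limit that had a summit within 1 kb of a start site, whose medians were 22.9, 16.45, 21.3 and 16.3 in the same order. The ratio of the distal to the promoter median was 0.405 in Control, 0.406 with IFNγ, 0.331 with PJ34 and 0.510 with both agents. The IFNγ+PJ34 list thus held the highest distal level relative to promoters, and the PJ34 list the lowest. Variable distal regions had medians of 3.55 to 4.37 in the lists that held them.

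**Figure D1:**
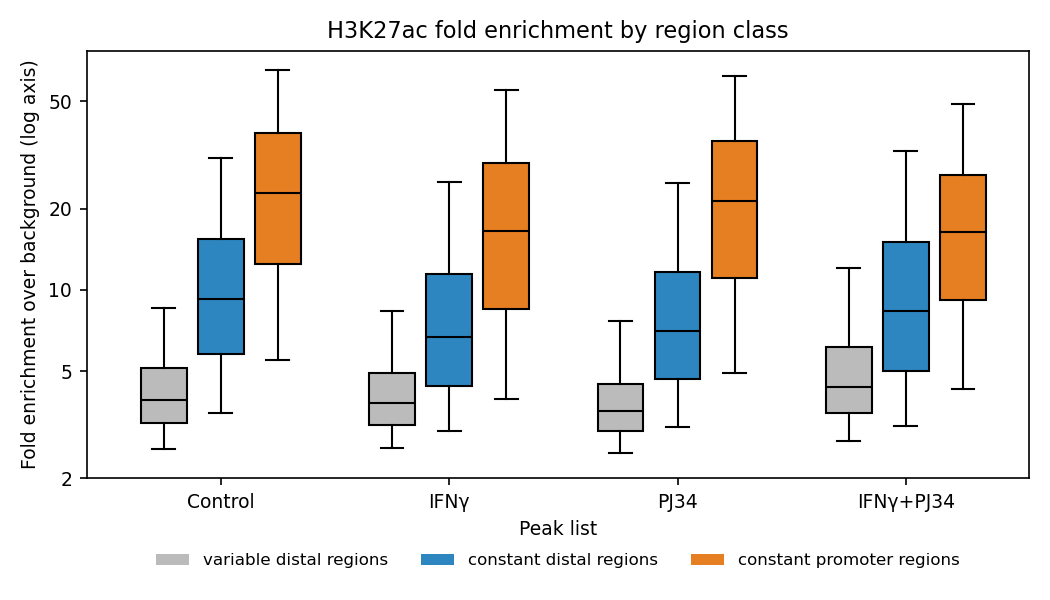
Fold enrichment over background (log axis) in the 4 peak lists for variable distal, constant distal and constant promoter regions. Boxes span the quartiles with the median as a line, and whiskers reach the 5th and 95th percentiles over regions; the constant distal medians (6.67 to 9.28) sit between the other classes in each list.

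The summits of members lay close together in different lists. Between IFNγ and Control, the summits of the highest peaks were a median of 58 bp apart (interval 56 to 60), and 77.6% lay within 200 bp of each other. Over the 6 pairs of lists the median ran from 50 bp (PJ34 and Control) to 63 bp (IFNγ+PJ34 and PJ34). The fold enrichments of members kept their order less well than their position. Spearman's rho over the 10535 members was 0.53 between IFNγ and Control, 0.66 between PJ34 and Control, and lowest, 0.40, between IFNγ+PJ34 and PJ34, whereas in constant promoter regions the lowest value was 0.77. These correlations run across regions that share libraries and background, so they describe the lists and are not a test.

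The 10 strongest members, by the lowest of their 4 within-list percentiles of −log10 p, lay mostly between genes. The first, in an intron of Bicral, a subunit gene of a SWI/SNF complex (chr17:46855331-46858967), had fold enrichments of 94.4 in Control, 59.8 with IFNγ, 91.2 with PJ34 and 86.5 with both agents. The second, upstream of Dync1h1, the heavy chain of cytoplasmic dynein (chr12:110590374-110592918), had 112, 77.2, 79.2 and 75.9. In each the lowest value was in a list with IFNγ. The member in an intron of Ppp1r21 (chr17:88549103-88553726) differed most between lists, with 76.3, 32.6, 50.1 and 106, lowest in IFNγ and highest in IFNγ+PJ34. Others among the 10 lay nearest to Arid1a, Chd2, Zfp869, Arhgap5, Cstad and Tspoap1. Of the 10, 4 lay within 1 kb of the start site of some annotated gene, against 7.53% of all members, and the windows near Bicral and Arid1a had a GC content of 69.2% and 76.0%, beside a median of 45.6% over the members.

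To describe the sequence of the members, which the definition did not use, 1000 bp around the summit of the highest peak were searched on both strands for short motifs and for control letters made by rearranging them. A match is a description of the sequence, not a site of binding. The members had a median GC content of 45.6% and 11 CpG dinucleotides per window, near the variable distal regions (44.3% and 9) and far from the constant promoter regions (59.2% and 63). A median of 17.0% of their bases was marked as repeats in the RefSeq sequence, against 19.9% and 7% in these classes. More CpG than in the median constant promoter region was found in only 200 members (1.90%).

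PU.1, the master regulator of myeloid cells, had the highest ratio to its control letters among the 6 motifs that had such letters, while AP-1 and RUNX exceeded theirs by more percentage points. PU.1 was found in 1964 members (18.6%, interval 17.9 to 19.4), in 13.6% of variable distal regions, in 7.83% of constant promoter regions and in 13.4% of all regions. The share among members was 2.38 times that of constant promoter regions (interval 2.20 to 2.58) and 1.37 times that of variable distal regions (1.31 to 1.44). Its control letters, TGAAGGAG, were found in 6.97% of members, 6.59% of variable distal regions and 6.48% of all regions. The difference from variable distal regions went along with strength. In 5 groups cut by the highest percentile of a region, the ratio was 1.26 (1.14 to 1.40) in the weakest group and between 1.00 and 1.16 in the other 4, whose intervals all included 1. Among the members, the PU.1 share went from 16.5% in the weakest group to 20.6% in the strongest.

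AP-1, the dimers of Fos and Jun proteins, had a match in 42.1% of members (interval 41.2 to 43.1), 37.9% of variable distal regions, 14.8% of constant promoter regions and 34.0% of all regions. Its control letters, ACTNAGT, were in 26.4% of members and 23.8% of all regions. C/EBP had a match in 40.4% of members, 39.2% of variable distal regions, 26.2% of constant promoter regions and 36.8% of all regions, but its control letters, AAGCNNTT, were more common still, at 48.1% of members and 44.7% of all regions. RUNX (TGTGGTT) was found in 26.5% of members, 26.6% of variable distal regions, 12.3% of constant promoter regions and 23.5% of all regions, with its control letters (TTGGTGT) in 13.0% of members. IRF (GAAANNGAA) was found in 38.1% of members, 34.9% of variable distal regions and 33.1% of all regions, and the ETS-IRF composite (GGAANNGAA) in 36.1%, 33.6% and 31.9%. The control letters of IRF (AAGNNAAAG) were in 35.8% of members, close to IRF itself. GAS was found in 31.7% of members, 32.6% of variable distal regions, 30.0% of all regions and 20.9% of constant promoter regions, and its control letters (GAANNNTTC) in 23.8% of members. Matches rarely shared bases: a PU.1 match overlapped an ETS-IRF match in 82 members and a GAS match an IRF match in 87.

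Motifs of promoters showed the opposite order between members and constant promoter regions. The GC box (GGGCGG), bound by SP factors, was in 21.2% of members, 85.7% of constant promoter regions and 30.0% of all regions. The motif of other ETS factors (CCGGAAGT) was in 2.20% of members and 12.8% of constant promoter regions, 3.57% of all regions. NRF1 (GCGCATGC) was in 2.05% of members and 8.40% of constant promoter regions, and YY1 (AAGATGGCG) in 0.674% and 6.63%. CTCF, the insulator protein, searched by its core letters AGGGGGCGC, was in 0.740% and 4.84%. The shares over all regions were 3.01% for NRF1, 1.64% for YY1 and 1.45% for CTCF. Against variable distal regions, however, these motifs were more frequent in members, as PU.1 was. The ratio of shares was 1.57 for the GC box, 1.83 for other ETS factors, 1.26 for NRF1, 1.58 for YY1 and 1.71 for CTCF. That of PU.1 was 1.37, so a higher share than in variable distal regions was not particular to it. Members and constant promoter regions thus differed in the letters around their summits as well as in their distance from start sites, by which they were separated.

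**Figure D2:**
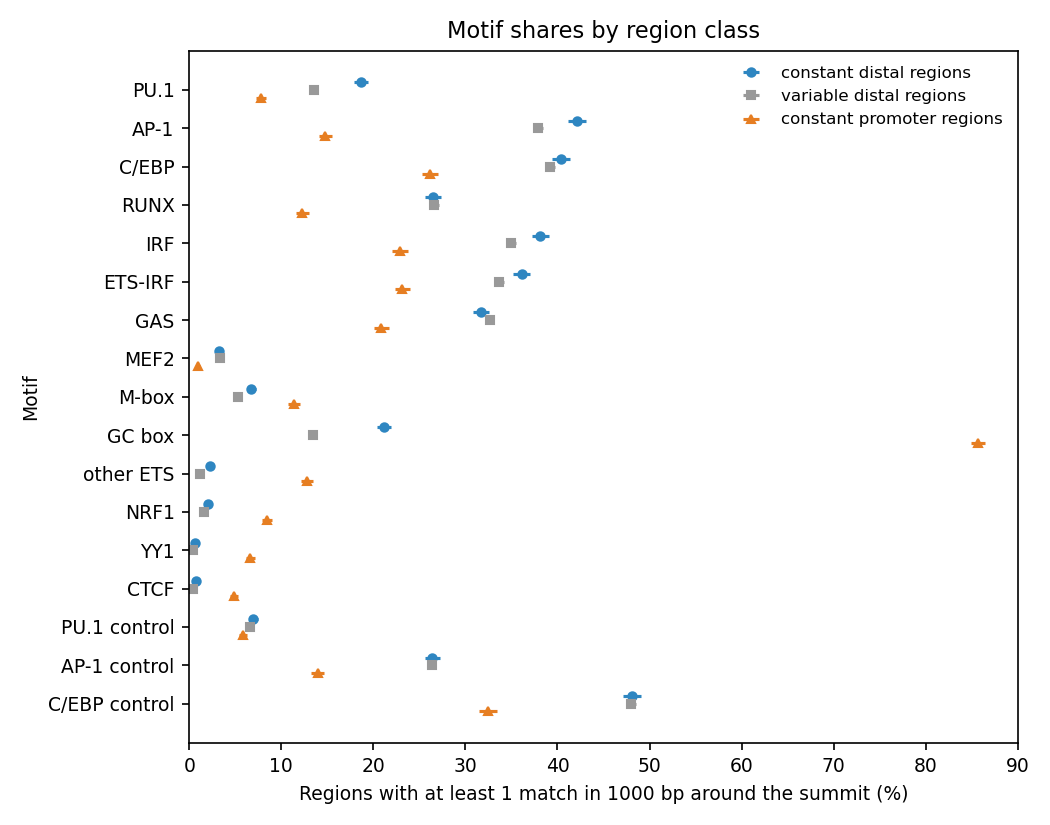
Share of regions (%) with at least 1 match to each motif or its control letters in 1000 bp around the summit, for constant distal, variable distal and constant promoter regions. Bars are exact 95% intervals over regions; PU.1 is at 18.6% in constant distal and 7.83% in constant promoter regions, and the GC box at 21.2% and 85.7%.

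Within the members the motifs had a position. PU.1 matches were scarce at the summit, with 0.0755 matches per kb within 100 bp of it, and most dense 200 to 300 bp away, with 0.361 per kb (interval 0.336 to 0.387). Between 1000 and 1500 bp from the summit the density was 0.0630 per kb, so the maximum was 5.72 times the outer level while the summit itself was near it. The control letters were flat, with 0.0793 per kb within 100 bp and 0.0699 in the outer part. AP-1 matches were also most dense at 200 to 300 bp, with 0.852 per kb, 2.69 times the outer level, against 0.2905 within 100 bp of the summit. C/EBP, IRF, RUNX and GAS had their highest density in the same bin, at 1.43, 1.63, 1.36 and 1.40 times their outer level. Variable distal regions held maxima of these motifs in that bin too, at 1.24, 1.38, 1.35 and 1.41 times. Control letters of C/EBP, IRF and AP-1 were also densest there in members, at 1.12, 1.26 and 1.16 times. Those of GAS reached 1.20 times at 100 to 200 bp. In variable distal regions the PU.1 maximum lay in the same bin but was lower, at 0.2495 per kb or 3.47 times the outer level. In constant promoter regions it reached 0.111 per kb or 1.93 times that level.

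**Figure D3:**
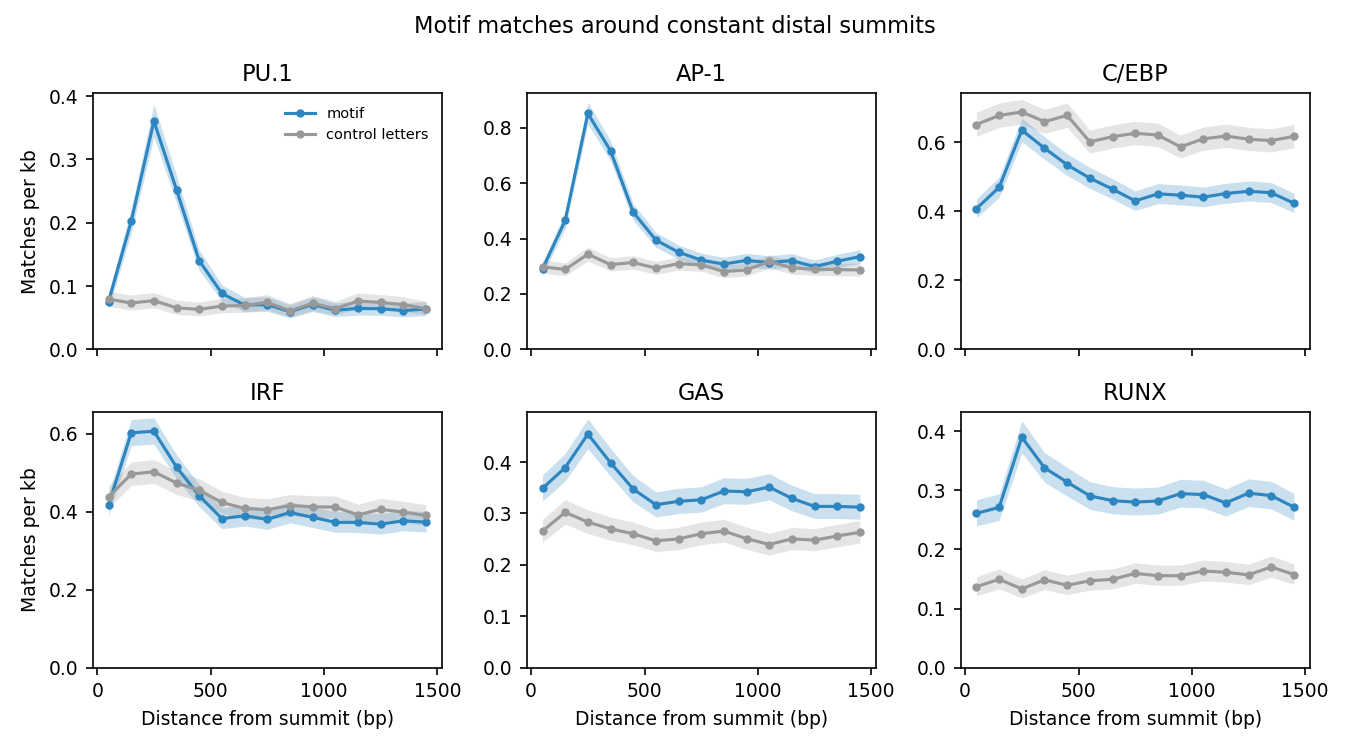
Matches per kb in 100 bp bins by distance from the summit of constant distal regions, for 6 motifs (blue) and their control letters (grey), with shaded Poisson 95% intervals. PU.1 climbs from 0.0755 per kb at the summit to 0.361 at 200 to 300 bp and returns to 0.0630 beyond 1000 bp, while its control letters stay near 0.07.

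To describe how the level of the members differed between conditions, the log2 ratio of fold enrichment between 2 lists was centred on its median over all regions found in both, and a ratio of 1.5-fold or more was counted. The median that was removed, -0.36 for IFNγ against Control, -0.18 for PJ34 against Control, 0.14 for IFNγ+PJ34 against IFNγ and -0.07 for IFNγ+PJ34 against PJ34, can come from depth as well as from H3K27ac. Because a member must have a peak in each list, sites that appear or vanish are left out. In IFNγ against Control, 2501 members (23.7%) were higher and 2741 (26.0%) lower, against 20.7% of all 25925 regions in each direction, and 13.45% and 19.6% of constant promoter regions. In PJ34 against Control, 1689 members were higher (16.0%, background 16.9%) and 2879 lower (27.3%, background 19.5%), with 15.7% and 12.7% of constant promoter regions. In IFNγ+PJ34 against IFNγ, 3259 were higher (30.9%, background 24.0%) and 2209 lower (20.97%, background 22.2%), with 13.7% and 26.6% of constant promoter regions. In IFNγ+PJ34 against PJ34, 3911 were higher (37.1%, background 26.9%) and 2103 lower (20.0%, background 24.0%), while among constant promoter regions 11.9% were higher and 34.2% lower. Without centring, 1378 members (13.1%) were higher and 4373 (41.5%) lower in IFNγ than in Control, 1073 (10.2%) and 3749 (35.6%) in PJ34 than in Control, 3800 (36.1%) and 1757 (16.7%) in IFNγ+PJ34 than in IFNγ, and 3645 (34.6%) and 2313 (21.96%) in IFNγ+PJ34 than in PJ34. All the directions given for members are therefore relative to the median of all regions.

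IFNγ against Control and IFNγ+PJ34 against PJ34 share no list, so they give separate readings of IFNγ. In both, 1116 members were at least 1.5-fold higher (10.6%, interval 10.0 to 11.2), against 6.91% of the 21468 regions found in all 4 lists and 2.49% of constant promoter regions. Without centring, 665 were higher in both, and centring within 20 groups of GC content gave 775. In IFNγ+PJ34 against PJ34 the members stood higher as a class. Their median centred log2 ratio was 0.24, against -0.30 in constant promoter regions. Members were also higher more often in each single pair, at 23.7% and 37.1%, against 20.7% and 26.9% of all regions found in both lists. Their larger share in both pairs together therefore does not by itself show a rise shared by the 2 pairs. How far the offset enters the shares of members higher in IFNγ+PJ34 than in PJ34 was not tested. In both comparisons, 413 members were lower (3.92%, interval 3.56 to 4.31), against 4.55% of the 21468 regions. Over all members the 2 shifts were almost unrelated, with a Pearson r of 0.04 and a Spearman rho of 0.02 across regions. In opposite directions, 475 members (4.51%, against 4.39% of those regions) were higher in the first pair and lower in the second, a share at the background. Another 1062 (10.1%, against 6.73%) were lower in IFNγ than in Control but higher in IFNγ+PJ34 than in PJ34.

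The members with the largest rise shared by both IFNγ pairs lay in introns or between genes. The member in an intron of Il4ra, the IL-4 receptor alpha chain (chr7:125559918-125562272), had fold enrichments of 2.79 in Control and 3.79 in PJ34, and 14.0 in IFNγ and 24.8 in IFNγ+PJ34. The member in an intron of Twistnb, an RNA polymerase I subunit gene (chr12:33432183-33435526), had 5.10 in Control, 7.11 in PJ34, 48.0 in IFNγ and 44.6 in IFNγ+PJ34. In each case both lists with IFNγ were above both lists without it, as the choice of these members by their shifts largely ensures. The same held for the members in introns of Hipk1 and Vsnl1 (nearest start site Smc6), with 2.59 to 4.27 without and 16.3 to 31.2 with IFNγ, and for the intergenic one near Tagap, with 3.62 and 5.17 without and 17.4 and 30.0 with it. At the other end, the member in an intron of Arhgap22, a regulator of Rac (chr14:33230483-33233518), had 19.3 in Control and 17.5 in PJ34, and 3.35 in IFNγ and 4.84 in IFNγ+PJ34. Those in introns of Dnah12, Sh3bp5 and Camta2 and near Krt78 had 11.0 to 25.7 without and 3.38 to 5.62 with IFNγ.

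The members that were higher in both IFNγ lists differed in sequence from the rest. A GAS match was found in 565 of the 1116 (50.6%, interval 47.7 to 53.6), in 29.9% of the members that were neither higher nor lower in both, and in 82 of the 413 that were lower (19.9%, interval 16.1 to 24.0). The ratio of the first share to the second was 1.69 (interval 1.59 to 1.81), against 1.12 (1.01 to 1.25) for the control letters of GAS. IRF matches were in 46.5%, 37.7% and 26.2% of the same sets, and PU.1 matches in 16.5%, 18.9% and 19.4%. The control letters of IRF were in 39.2%, 35.6% and 30.0%, in the same order as IRF itself. The windows of the higher members held slightly less GC, with a median of 43.8% against 45.7%, so the comparison was repeated in 5 groups of GC content. The GAS ratio was between 1.46 and 1.97 in them, with no interval reaching 1, while all 5 intervals of the control letters included 1.

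The share of members higher in both IFNγ pairs also went up with the number of GAS matches. It was 7.66% (interval 7.05 to 8.30) of the 7195 members with none, 14.95% (13.6 to 16.4) of the 2715 with 1, 25.1% (21.6 to 29.0) of the 553 with 2, and 27.8% (17.9 to 39.6) of the 72 with 3 or more. The last 2 do not differ beyond their intervals. In the higher members GAS matches were most dense 200 to 300 bp from the summit, with 1.10 per kb (0.965 to 1.24), against 0.384 in the rest and 0.254 in the lower members at the same distance. In the same bin the control letters had 0.3405 per kb in the higher members.

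**Figure D4:**
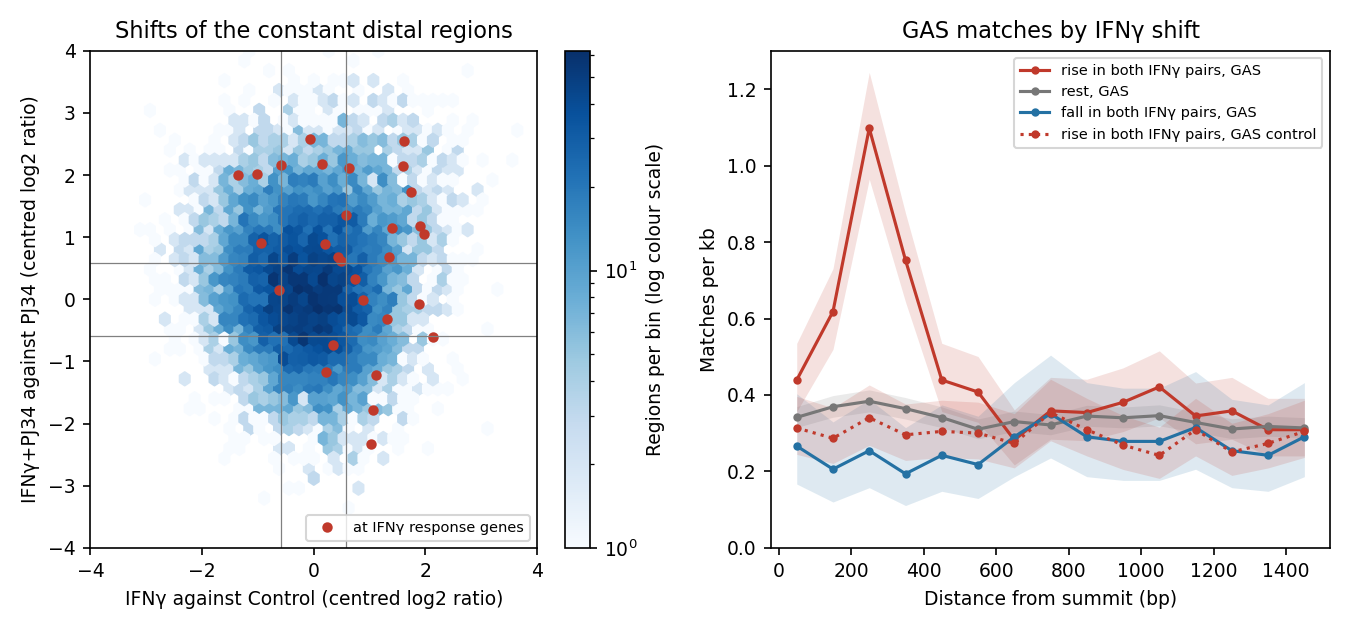
Left, centred log2 ratio of fold enrichment for each constant distal region in IFNγ against Control (horizontal) and IFNγ+PJ34 against PJ34 (vertical), with lines at 1.5-fold and red points for the 29 regions at IFNγ response genes; 1116 regions lie beyond both upper lines. Right, GAS matches per kb by distance from the summit for regions higher in both pairs, lower in both and the rest, and control letters in the higher ones (dotted), with shaded 95% intervals; the higher regions reach 1.10 per kb at 200 to 300 bp.

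In single comparisons, GAS was also more frequent among members higher in IFNγ than in Control (43.1%, against 29.7% of those shifted less than 1.5-fold) and in IFNγ+PJ34 than in PJ34 (38.5% against 28.7%). Among members higher in PJ34 than in Control the GAS share was 35.4%, against 32.3%, and among those higher in IFNγ+PJ34 than in IFNγ 34.5%, against 30.5%. PU.1 matches were found in 21.96% of the members lower in IFNγ than in Control and in 21.6% of those lower in PJ34 than in Control, against 18.2% and 17.95% of members with smaller shifts, 2 comparisons that share the Control list. In the other 2 the order was the reverse, with PU.1 in 20.1% of the higher and 17.3% of the lower members in IFNγ+PJ34 against PJ34, and in 21.5% and 16.2% in IFNγ+PJ34 against IFNγ. AP-1 matches were found in 48.3% of members higher and 38.4% of members lower in IFNγ than in Control, but in 37.8% and 48.2% in IFNγ+PJ34 against PJ34. In both pairs together AP-1 was even, at 41.5% of the higher members, 43.1% of the lower ones and 42.2% of the rest.

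PJ34 against Control and IFNγ+PJ34 against IFNγ likewise share no list. In both, 291 members were higher (2.76%, against 2.08% of regions in all 4 lists) and 314 lower (2.98%, against 2.60%). In opposite directions, 575 (5.46%, against 5.25%) were higher in PJ34 than in Control and lower in IFNγ+PJ34 than in IFNγ, and 1315 (12.5%, against 8.22%) were the reverse. The 2 shifts ran against each other, with a Pearson r of -0.30 over members. AP-1 matches were found in 51.6% (interval 45.9 to 57.2) of the members lower in both, 42.3% of those higher in both and 41.8% of the rest. In the single comparisons AP-1 had no common order, with 48.3% of the higher and 38.9% of the lower members in PJ34 against Control, and 36.5% and 51.2% in IFNγ+PJ34 against IFNγ. IRF matches were in 47.4% of the members higher in both, 38.1% of the rest and 30.6% of those lower in both. GAS matches were in 38.8%, 31.75% and 23.6%, a ratio of the first to the second of 1.22 (interval 1.06 to 1.42). A higher share of IRF or GAS was thus not particular to members higher in both IFNγ pairs. The clearest higher members lay near Stag2, Fcgr2b, Reep3, Commd3 and Ccl2. The one 12363 bp upstream of Ccl2, the chemokine that draws monocytes (chr11:82022895-82024580), had fold enrichments of 4.89 in Control, 3.05 with IFNγ, 11.3 with PJ34 and 28.9 with both agents. Both lists with PJ34 were above both without it, as the choice of this member by its shifts largely ensures. The clearest lower ones were in introns of Itgb2, Sipa1l1, Coro1c and Cep192 and near Fgd3. The Itgb2 member (chr10:77551187-77552453), in the gene for the integrin beta 2 chain of leukocytes, had 22.3 in Control, 9.22 with IFNγ, 6.18 with PJ34 and 3.25 with both agents.

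Each member was assigned to the protein-coding gene with the nearest start site, which need not be the gene it acts on. Within 100 kb, members were assigned to 4549 of 21924 protein-coding genes (20.7%, interval 20.2 to 21.3). Genes of the macrophage lists had one far more often: 23 of 30 transcription factors known from macrophages (76.7%, interval 57.7 to 90.1) and 29 of 39 matched surface and effector genes (74.4%, interval 57.9 to 86.96). The shares were 17 of 29 matched IFNγ response genes (58.6%, interval 38.9 to 76.5), 15 of 20 inflammatory genes (75%, 50.9 to 91.3) and 9 of 25 genes active in most cells (36%, 17.97 to 57.5). Nearby distal regions at macrophage genes were not particular to the members. All listed regulators except Nr1h3 and Junb also had a variable distal region within 100 kb. So did all matched surface and effector genes except Cd68, Fcgr4, Fcer1g and Tyrobp. For constant promoter regions the order was different. They were found at 84.0% of the genes active in most cells, 42.0% of both macrophage lists together and 39.4% of all protein-coding genes. The class of constant promoter regions leaves out broad regions, those at or over the width limit. Of the 17 genes of both macrophage lists without a member, 9 had a broad constant region and 5 a constant promoter region. Of the 16 genes active in most cells without a member, 0 had a broad constant region and 15 a constant promoter region. The order is thus given for this width class only, and whether broad regions covered the start sites was not tested.

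As a check of the cell type, 5 of 8 macrophage markers had a member (Csf1r, Adgre1, Itgam, Fcgr1 and Mertk). Of the other 3, Spi1 and Lyz2 had a broad region of 5000 bp or more in all 4 lists and Cd68 had no constant region. Markers of other cells had a member in 2 of 8 cases for neutrophils, 3 of 10 for T and NK cells, 1 of 8 for B cells, 2 of 10 for erythroid, mast and megakaryocyte cells, 1 of 8 for fibroblasts, and 2 of 8 for liver and neurons. Among the markers of other cells without a member, 1 erythroid, mast or megakaryocyte marker had a constant promoter region and the rest had neither that nor a broad one.

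Among the macrophage regulators, Runx1 had the most members within 100 kb (15), followed by Pparg (10), Fos (8), Klf6 and Fli1 (6 each). The leading Runx1 member (chr16:92866548-92870360), upstream of this partner of PU.1, was nearly even, with fold enrichments of 44.8 in Control, 45.55 with IFNγ, 50.3 with PJ34 and 51.7 with both agents. The leading member near Klf6, a zinc finger factor (chr13:5842873-5846794), had 36.2, 52.7, 42.9 and 42.2. The leading one in an intron of Pparg, the lipid-sensing nuclear receptor (chr6:115478707-115481379), had 21.9, 20.0, 21.7 and 14.85. Before centring, these 3 differed by less than 1.5-fold between any 2 lists, while after it the Klf6 member was higher in IFNγ than in Control by 0.91 on the log2 scale. Others differed more. The leading member upstream of Irf8, a factor needed for monocyte development and induced by IFNγ (chr8:120714605-120717849, in an intron of Gm20388), had 14.9 in Control, 46.0 with IFNγ, 20.0 with PJ34 and 29.2 with both agents, and was highest in the lists with IFNγ. The leading member near Maf (chr8:115610931-115615685) had 34.7, 6.77, 14.4 and 24.1, and that near Mef2a (chr7:67444028-67447169) had 40.8, 8.20, 10.3 and 23.4, both highest in Control and lowest in IFNγ. All 7 regulators without a member (Spi1, Cebpa, Irf5, Nr1h3, Egr2, Jdp2 and Junb) had a constant promoter region or a broad one.

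Among the surface and effector genes, Abca1, the cholesterol exporter, had 10 members, Lpl, lipoprotein lipase, 7, Cd36, the scavenger receptor, 6 and Itgb2 5. The leading member upstream of Fcgr1, the high-affinity IgG receptor (chr3:96297975-96302702), had fold enrichments of 46.5 in Control, 54.7 with IFNγ, 35.8 with PJ34 and 90.6 with both agents. The leading member upstream of Adgre1, which encodes F4/80 (chr17:57346131-57349554), had 61.1, 32.4, 40.3 and 11.7 and was highest in Control. The leading member in an intron of Csf1r, the receptor for the macrophage growth factor M-CSF, had 20.6, 5.82, 11.7 and 11.0. The leading member in an intron of Mrc1, the mannose receptor (chr2:14249357-14251997), had 14.85, 4.72, 4.69 and 32.5, and that upstream of Ctsb, cathepsin B (chr14:63102152-63104868), had 24.5, 33.1, 6.58 and 65.4, both highest in IFNγ+PJ34. As a list, the 88 members at these genes were centred near other members, with a median log2 ratio of -0.12 for IFNγ against Control and 0.22 for IFNγ+PJ34 against PJ34, beside -0.02 and 0.24 over all members within 100 kb.

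The 29 members at the IFNγ response genes stood higher in the lists with IFNγ. Their median log2 ratio was 0.74 for IFNγ against Control and 0.89 for IFNγ+PJ34 against PJ34. At 1.5-fold, 16 were higher and 4 lower in the first comparison, and 18 higher and 6 lower in the second. Of all members, 23.7% were higher and 26.0% lower in the first, and 37.1% and 20.0% in the second. In both, 8 of the 29 were higher (27.6%, beside 10.4% of all members within 100 kb) and none lower, where 369 of those 9207 members (4.01%) were lower. The member near Cxcl10, a chemokine for T cells (chr5:92351451-92354667), had fold enrichments of 20.9 in Control, 48.9 with IFNγ, 9.83 with PJ34 and 41.7 with both agents. The member upstream of Gbp5, a guanylate-binding protein of cell-autonomous defence (chr3:142493169-142494177), had 8.65, 20.5, 5.70 and 31.6. Both were higher in either list with IFNγ than in either without. The same held for the member in Ciita, the master regulator of MHC class II genes (chr16:10486424-10486899), with 5.10, 14.8, 6.81 and 14.7, for the one near Irgm1 with 4.48, 9.15, 5.82 and 12.3, and for a member upstream of Nos2, inducible nitric oxide synthase (chr11:78887179-78890536), with 6.66, 20.25, 7.08 and 14.0. The other 3 higher in both lay near Irf7, Ifi204 and Jak2. Without centring, 13 were higher and 5 lower in IFNγ than in Control, and 17 and 6 in IFNγ+PJ34 than in PJ34. A GAS match was found in 10 of the 29 (34.5%), beside 31.5% of all members within 100 kb, so the share of GAS matches at these genes was near that of members at large.

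Other members at response genes did not follow this pattern. The member near Socs3, a feedback inhibitor of cytokine signalling (chr11:117940102-117942885), had 7.88 in Control, 12.5 with IFNγ, 17.9 with PJ34 and 3.40 with both agents, and was lowest in the last. The member in an intron of Cd274, which encodes PD-L1 (chr19:29381485-29385140), had 7.95, 13.3, 18.1 and 7.40, highest in PJ34. The member in Cd40 (chr2:165060717-165062716) had 12.5, 4.81, 4.83 and 18.6, low in the lists with 1 agent. Of the 12 listed response genes without a member, 8 had a constant promoter region or a broad one, among them Irf1.

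**Figure D5:**
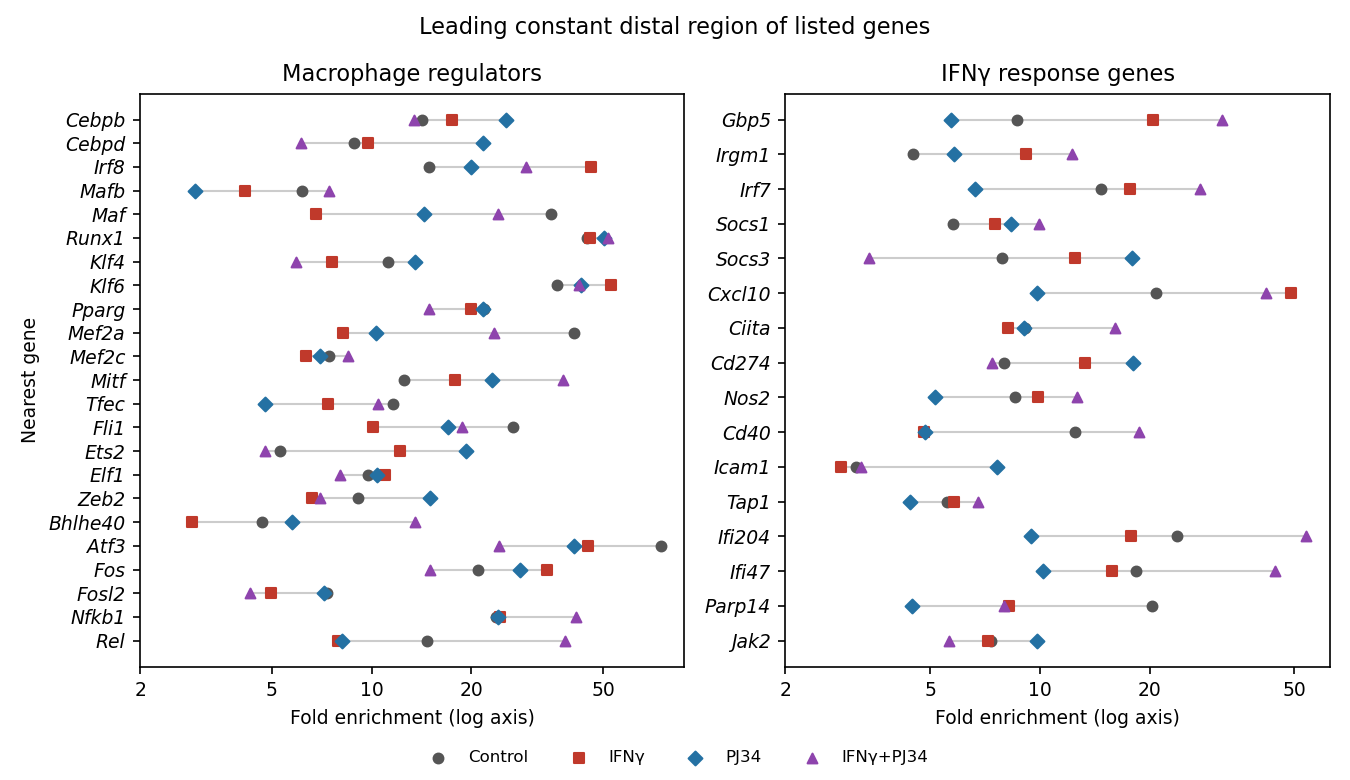
Fold enrichment (log axis) in the 4 lists for the leading constant distal region, the one with the highest lowest-of-4 percentile, of macrophage regulators and IFNγ response genes that had one. Grey lines join the lowest and highest list; Runx1 runs from 44.8 to 51.7, whereas Cxcl10 runs from 9.83 in PJ34 to 48.9 in IFNγ.

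The 39 members at inflammatory genes showed another order. In PJ34 against Control, 20 were at least 1.5-fold higher and 1 lower, with a median log2 ratio of 0.60, whereas in IFNγ+PJ34 against PJ34 7 were higher and 16 lower, with a median of -0.45. These 2 comparisons share the PJ34 list. In IFNγ against Control 14 were higher and 5 lower, with a median of 0.22, and in IFNγ+PJ34 against IFNγ 7 were higher and 17 lower, with a median of -0.27. Without centring, the counts were 17 and 3 for PJ34 against Control and 6 and 18 for IFNγ+PJ34 against PJ34, and 8 and 7, and 7 and 15, for the latter comparisons. With centring, 16.0% of all members were higher and 27.3% lower in PJ34 against Control, and 37.1% and 20.0% in IFNγ+PJ34 against PJ34. The shares of all members were 23.7% and 26.0% in IFNγ against Control, and 30.9% and 20.97% in IFNγ+PJ34 against IFNγ. Tnfaip3, the NF-κB inhibitor A20, had 12 of the 39 members. A single locus thus weighs on these counts and medians, and the members are not independent sites. The leading Tnfaip3 member (chr10:19060968-19065812) had 27.8, 21.6, 24.1 and 24.6 and was nearly even. The leading member upstream of Il1b, interleukin 1 beta (chr2:129378904-129382847), had 18 in Control, 16.55 with IFNγ, 32.8 with PJ34 and 10.5 with both agents. That near Nfkbia, another NF-κB inhibitor (chr12:55471834-55475967), had 17.2, 13.1, 26.2 and 9.37. Both were highest in PJ34 and lowest in IFNγ+PJ34.

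Without a distance limit, the genes nearest to most members were Lpp with 25, Adgrl2 with 24, Klf6 and Cited2 with 19 each, Runx1 with 18, Prdm1 with 17, Maf with 16, and Ptger4, Rftn1, St3gal1 and Gm5426 with 15 each. The Lpp members spanned chr16:24193253-24974583 around this gene of a cell adhesion protein, 14 of them with an AP-1 match and 4 with a PU.1 match. Cited2, which encodes a partner of the acetyltransferases CBP and p300, had its 19 members 25429 to 848493 bp from its start site. Their median fold enrichments were 7.70, 8.00, 6.66 and 14.9 in the same order of lists, and 6 were higher in both IFNγ pairs with none lower. The 19 Klf6 members had medians of 8.24, 10.2, 8.62 and 16.6, with 5 higher in both and none lower. Cited2 and Klf6 had the most members higher in both among the genes listed here. Of all members, 10.6% were higher and 3.92% lower in both, so few lower ones would be found among 19 in any case. The medians near Maf, 10.3, 5.42, 11.3 and 6.91, were lower in both lists with IFNγ, but at 1.5-fold only 1 of its 16 members was lower in both pairs and none higher. Neighbouring members may share a gene and a domain of chromatin, so their number is not a number of independent sites.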

How the data were processed

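Bone marrow-derived macrophages were profiled by H3K27ac ChIP-seq. The authors aligned reads to mm10 with Bowtie, filtered them with Samtools and Picard, called relaxed peaks per replicate with MACS against input, and kept those called in both replicates. Each deposited list gives a score, a fold enrichment (a ratio), a −log10 p-value, a −log10 q-value and a summit offset. The input samples entered only as background. The score was not used.

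The members and gene lists were chosen with earlier results of these data known. Regions and motifs were computed in Python 3.11.15 (pandas 2.3.3, scipy 1.17.1, pysam 0.24.0), with gene models of GENCODE M21 (basic annotation, start sites for 21864 protein-coding genes) and the RefSeq GRCm38 sequence, on which all peaks lay. The value of a region in a list was its highest fold enrichment, and positions refer to the summit of the peak with the highest within-list percentile of −log10 p. Shares have exact Clopper-Pearson 95% intervals, and ratios of shares have log-scale intervals; neighbouring regions are not independent. Of the gene lists, 1 surface gene and 1 response gene did not match the annotation. Named regions were the 10 strongest, the leading member of listed genes, the 5 largest shared shifts in each direction for IFNγ and PJ34, the genes nearest to most members, and those at the limits. Printed sequences were centred on the match nearest to the summit. The functions were tested on simulated data. Some members are included in the counts but not reported by name here.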

Additional observations from a re-analysis of the deposited data

Results flagged for a closer look

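Members whose level went opposite ways with IFNγ in the absence and in the presence of PJ34, or with PJ34 in the absence and in the presence of IFNγ, were taken for a closer look. At 475 constant distal regions (4.51%, against 4.39% of all regions in the 4 lists, so near the background) the fold enrichment was at least 1.5-fold higher in IFNγ than in Control and at least 1.5-fold lower in IFNγ+PJ34 than in PJ34. At 1062 regions (10.1%, against 6.73%) it was lower in IFNγ than in Control and higher in IFNγ+PJ34 than in PJ34. Likewise, 575 regions (5.46%, against 5.25%) were higher in PJ34 than in Control and lower in IFNγ+PJ34 than in IFNγ, and 1315 (12.5%, against 8.22%) were the reverse. The difference between the pairs was not tested, as each condition has 1 list, and how far differences in depth or enrichment between the lists enter it was not tested either.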

How the results depend on the processing

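No paired analysis was possible because both replicates of a condition were deposited as 1 combined list, so leaving out a replicate could not be done either. The 9 main results were recomputed under 62 alternatives, of which 45 stayed within their interval or within 1.5 times the count and 17 moved. A change of direction could be scored only for the ratios of motif shares, and none of these crossed 1. The comparison of GAS shares, its alternatives and the centring within 20 groups of GC content were chosen after seeing the data. Keeping only the 50% of peaks with the higher −log10 p gave 4134 constant distal regions, an intron share of 45.7%, a PU.1 ratio of 1.08 against variable distal regions, 973 members higher in IFNγ than in Control, 493 higher in both IFNγ pairs, a median summit distance of 43 bp, and 60.9% of macrophage genes with a member. Start sites of all annotated genes gave an intron share of 51.0%. A window of 200 bp gave PU.1 ratios of 1.22 and 1.78 against variable distal and constant promoter regions and a GAS ratio of 1.26; this window leaves out the bins where these motifs were most dense. In 5 groups of strength cut over both classes together, the median PU.1 ratio against variable distal regions was 1.08. The ratios of single groups ran from 0.868 to 1.57, so they lay on both sides of 1. A 2-fold threshold gave 1255 members higher in IFNγ than in Control and 493 in both pairs, and without centring these were 1378 and 665. Centring within GC groups gave 775 in both pairs and a GAS ratio of 1.67. Members with exactly 1 peak in each list had a summit distance of 49 bp. The lists give no read counts, so the part of depth in any difference of level cannot be told apart from that of the condition.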
